A study of Homo sapiens with 16 samples.

Results

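The response of p53 knockout (p53 KO) LNCaP cells to the GCN2 inhibitor GCN2iB was taken from 8 of the 16 RNA-seq libraries of the study, the 4 labelled p53 KO GCN2iB and the 4 labelled p53 KO vehicle. LNCaP is a human prostate cancer line of luminal type that carries the androgen receptor. In the other 8 libraries wild-type (WT) LNCaP cells had the same treatments, 4 libraries each. Every well was seeded with 350000 cells and received vehicle or 5 µM GCN2iB for 48 h, so all 4 groups share the line, the plating and the time. The design asks how transcript levels behave when p53 is lost and GCN2 is inhibited together. The labels do not state whether the knockout line is 1 clone or a pool, or whether replicates were separate cultures, and p-values therefore measure the spread between these libraries, which may be technical. There was 1 inhibitor at 1 dose and 1 time, so effects of the compound apart from GCN2 were not tested.

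GCN2 is a protein kinase that senses uncharged transfer RNA. When amino acids are scarce it phosphorylates eIF2, which slows general translation but lets the messenger of the transcription factor ATF4 be translated. ATF4 then drives genes for amino acid uptake, amino acid synthesis and the charging of transfer RNA. In prostate cancer cells this pathway is known to supply amino acids and, through serine and glycine, the carbon of nucleotides, while p53 is known for cell cycle arrest through the inhibitor CDKN1A.

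The labels and the cell type were checked first. CDKN1A read 247 to 298 CPM in the WT vehicle libraries and 35.4 to 43.1 CPM in the p53 KO vehicle libraries (CPM, the usual unit for counts brought to a common library total). The summed level of 13 luminal prostate markers was 6986 to 7174 CPM under vehicle and 6219 to 6689 CPM under GCN2iB. In any of the 8 libraries the 6 immune and blood markers summed to at most 0.383 CPM and the 5 basal ones to 7.87 CPM. The highest sums were 8.21 CPM for 5 neuroendocrine, 12.9 CPM for 3 endothelial and 22.7 CPM for 6 stromal markers. The endothelial marker VWF read 8.82 to 10.8 CPM under vehicle and 11.2 to 12.8 CPM under GCN2iB, without overlap. Total counts of the 8 libraries ran from 17418072 (p53 KO GCN2iB 3) to 39915685. On the first principal component, which held 30.0% of the variance, the vehicle libraries lay between -27.5 and -12.0 and the GCN2iB libraries at 11.1, 16.1, 19.0 and 34.7, the last being replicate 4. GCN2iB replicate 4 stood apart by transcript length as well. Its deviation from the mean of the 8 libraries correlated with length at a Spearman rho of -0.41 across 17678 genes. In the other 7 libraries this rho was -0.10 to 0.22, and a deviation of this kind includes the treatment effect. The median deviation of GCN2iB 4 from the rest of its own group was 0.22 (log2) in the shortest 20% of genes and -0.21 in the longest. GCN2iB 3, the library of lowest depth, deviated from the rest of its group by as much (root mean square 0.394 on the log2 scale in both) and lay at -38.1 on the second component. Of the deviations from the mean of the 8 libraries, that of vehicle 1 had the strongest correlation with GC content (rho -0.46). Over genes with a known length, the log2 change under GCN2iB in p53 KO cells correlated with length at a rho of -0.19, and of -0.07 without GCN2iB 4. The change in WT cells, measured in other libraries, correlated with length at a rho of -0.18. The source of these trends was not tested. Counts of called list members that moved by over 1.5 times without GCN2iB 4 or another of the 8 libraries, or with library totals, are given beside the first value, except counts of 0 or 1.

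**Figure D1:**
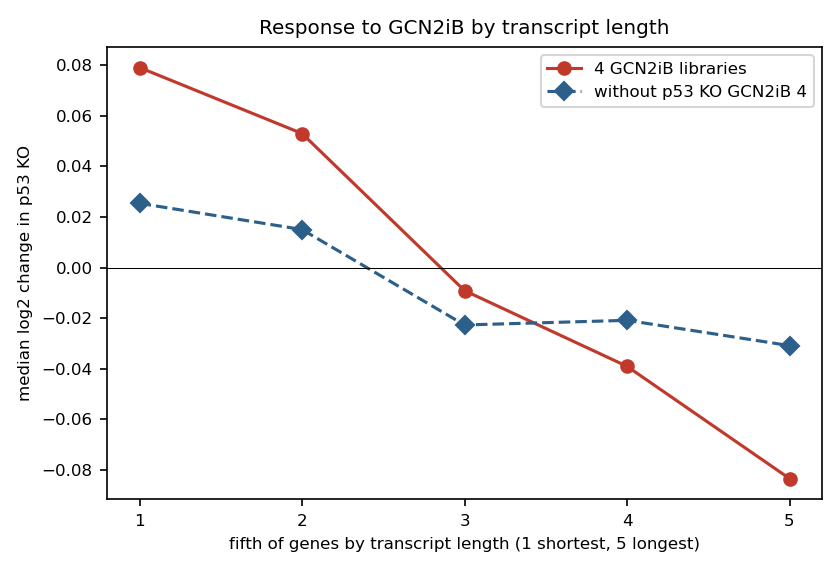
Median log2 change under GCN2iB in p53 KO cells (y axis) for genes in 5 equal bins of transcript length (x axis, 1 shortest), with all 4 GCN2iB libraries (circles) and without p53 KO GCN2iB 4 (diamonds). The medians run from 0.08 in the shortest bin to -0.08 in the longest, and from 0.03 to -0.03 without that library.

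GCN2iB changed many transcripts in the absence of p53, most of them by little. Counts were tested with the quasi-likelihood test of edgeR over all 18549 genes that passed a count filter, with Benjamini-Hochberg adjustment, and the words rise, fall and called are kept for genes whose adjusted p was under 0.05. Of these genes 3734 (20.1%) were called, 2119 higher (11.4%) and 1615 lower (8.71%), with a median fold of 1.27 among them. Counts of called members in the lists below are to be read against these shares of 11.4% and 8.71%. Falls were more frequent among the large changes: 94 genes fell and 34 rose at least 2-fold (0.507% and 0.183%), and 297 fell and 224 rose at least 1.5-fold. The 4 vehicle and the 4 GCN2iB libraries did not overlap in 4016 genes (21.7% of those tested), which included 3038 (81.4%) of the called ones. The split between directions depended on the scaling: 56.7% of calls were higher here and 34.4% with library totals as the only scaling (1401 higher, 2672 lower). Without GCN2iB replicate 4 there were 1749 higher and 1278 lower genes, 2719 of the 3734 calls (72.8%) were still called in the same direction, and 0 changed sign. In bulk RNA, a change in the number of cells in a given state and a change in RNA per cell cannot be told apart.

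The ATF4 program, the set of stress genes that ATF4 switches on, had the deepest falls. Of 30 listed and tested genes 23 fell and 0 rose, with a median log2 change of -0.70 against -0.01 over all genes tested. CHAC1, an enzyme that degrades glutathione (ENSG00000128965, chromosome 15, 40952962 to 40956519, GRCh38), read 20.2, 24.2, 22.5 and 27.1 CPM under vehicle and 2.99, 3.17, 3.17 and 4.28 CPM under GCN2iB, in order of replicate. Every treated library lay below every vehicle library, and CHAC1 fell 6.86-fold (log2 -2.78, SE 0.13, adjusted p = 1.06e-12). ATF4 itself (ENSG00000128272, chromosome 22, 39519695 to 39522685) read 457, 519.6, 505 and 535 CPM under vehicle and 279, 287, 279 and 292 CPM under GCN2iB, again with no overlap, and fell 1.77-fold (log2 -0.83, SE 0.06, adjusted p = 6.27e-09). DDIT3, the stress factor CHOP, went from 20.1 ± 2.79 to 10.3 ± 1.29 CPM and fell 1.94-fold, and TRIB3, a pseudokinase that restrains ATF4, fell 1.62-fold from 146 ± 14.7 to 90.5 ± 6.5 CPM (means ± SD, n = 4). The secreted peptide gene ADM2 read 87.01 to 99.1 CPM under vehicle and 30.5 to 35.8 CPM under GCN2iB and fell 2.78-fold (log2 -1.47, SE 0.07, adjusted p = 1.06e-12). STC2, a secreted glycoprotein, read 179 to 185 CPM under vehicle and 87.1 to 102 CPM under GCN2iB and fell 1.94-fold. The list median relative to the vehicle mean was -0.61, -0.71, -0.70 and -0.61 (log2) in GCN2iB 1 to 4 against -0.06 to 0.05 in the vehicle libraries. GCN2iB 4 therefore showed this fall of the list median as the other treated libraries did, and 22 of the 30 genes were lower without it. It was, however, the highest treated library in 18 of the 30 genes (60%, against 37.1% of all genes tested), CHAC1 among them.

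**Figure D2:**
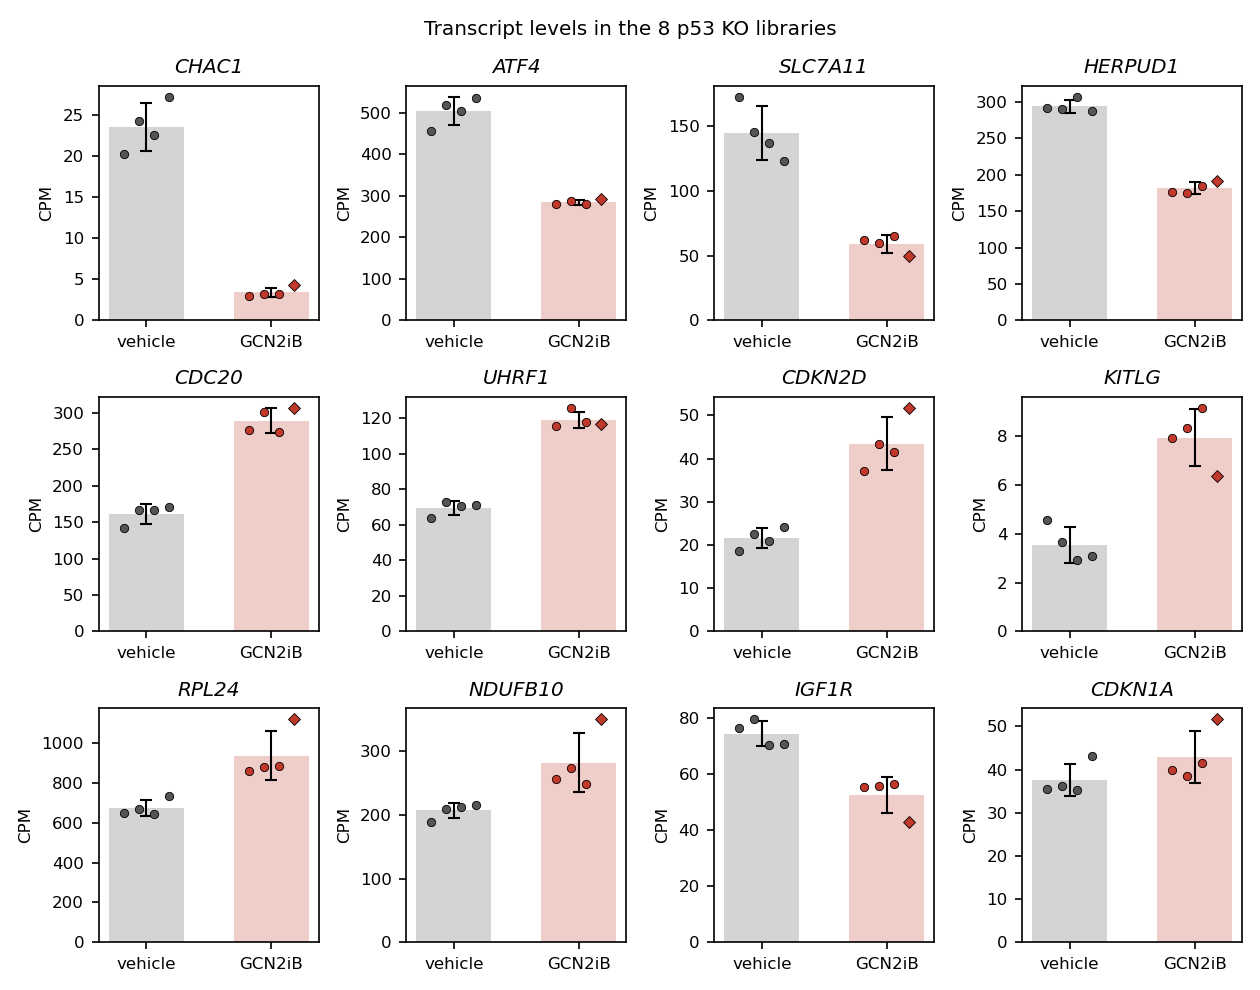
Level in CPM (y axes, from 0) of 12 transcripts in the 8 p53 KO libraries by treatment: points are libraries, the diamond is GCN2iB 4, bars are means and whiskers SD (n = 4). CHAC1, ATF4, SLC7A11, HERPUD1 and IGF1R lie lower and CDC20, UHRF1, CDKN2D, KITLG, RPL24 and NDUFB10 higher in every GCN2iB library, while the groups overlap for CDKN1A.

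Genes that bring amino acids into the cell and load them onto transfer RNA fell as well. Of 23 tested transporters 12 fell and 0 rose. SLC7A11, the cystine carrier (ENSG00000151012, chromosome 4, 138164097 to 138242349), read 173, 146, 137 and 123 CPM under vehicle and 62.1, 59.6, 64.9 and 49.5 CPM under GCN2iB. The vehicle libraries varied more than the treated ones but did not reach them, and SLC7A11 fell 2.45-fold (log2 -1.30, SE 0.10, adjusted p = 1.76e-08). SLC6A9, a glycine carrier, fell 2.9-fold from 35.8 ± 3.98 to 12.4 ± 0.517 CPM, SLC7A5, which carries large neutral amino acids, 2.54-fold from 20.2 ± 1.46 to 7.96 ± 0.363 CPM, and SLC1A5, a glutamine carrier, 2.3-fold from 143 ± 15.4 to 62.3 ± 5.34 CPM. Of 20 cytosolic aminoacyl-tRNA synthetases 11 fell and 2 rose. GARS1, for glycine, read 293, 284, 276 and 272 CPM under vehicle and 132, 126, 128 and 122 CPM under GCN2iB and fell 2.22-fold (log2 -1.15, SE 0.06, adjusted p = 1.35e-11) with no overlap. CARS1, for cysteine, fell 2.1-fold, YARS1, for tyrosine, 1.58-fold and SARS1, for serine, 1.45-fold. The 2 that rose, named after their values were seen, were FARSA (phenylalanine, log2 0.38, adjusted p = 0.00118) and VARS1 (valine, log2 0.22, adjusted p = 0.0352). The call of VARS1 ended without vehicle 1, 2 or 3, GCN2iB 2 or 4, or WT vehicle 3 (adjusted p of 0.0505 to 0.137) with library totals (0.127), at a mean of 50 counts (0.0588) and with only the groups compared (0.062). With the GC and length trends removed 4 of the 20 rose. The mitochondrial synthetases had 1 riser, NARS2, and 1 faller, RARS2, among 17 tested (5.88% each way, against 11.4% and 8.71% of all genes tested). RARS2 missed without the count filter (adjusted p = 0.07).

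Enzymes that make amino acids moved in both directions. Of 24 genes of serine, glycine and folate metabolism 7 fell and 3 rose (1 rose with library totals or without vehicle 4 or GCN2iB 3). PSAT1, the aminotransferase of serine synthesis, read 442, 408, 409 and 420.5 CPM under vehicle and 244, 238, 245 and 237 CPM under GCN2iB, which places all treated libraries far below all vehicle libraries, and it fell 1.74-fold (log2 -0.80, SE 0.06, adjusted p = 1.29e-09). PSPH, the last enzyme of that route, fell 1.36-fold and MTHFD2, a mitochondrial folate enzyme, 1.42-fold. SHMT1, which interconverts serine and glycine in the cytosol, rose 1.26-fold and TYMS, which makes thymidylate, 1.25-fold. With library totals the rise of TYMS did not pass (adjusted p = 0.0519). The call of TYMS also ended without vehicle 4 or GCN2iB 3 (0.0501 and 0.0603) and with the GC and length trends removed (0.0541). Of 18 other enzymes of non-essential amino acids 7 fell and 1 rose. ASNS, asparagine synthetase, was weakly expressed at 6.64, 6.76, 6.95 and 7.34 CPM under vehicle and 3.57, 3.68, 4.03 and 2.65 CPM under GCN2iB and fell 2.01-fold (log2 -1.01, SE 0.13, adjusted p = 7.1e-06). GPT2, mitochondrial alanine aminotransferase, fell 1.32-fold, GLUD1, glutamate dehydrogenase, 1.31-fold and OAT, ornithine aminotransferase, 1.46-fold, while GOT1, cytosolic aspartate aminotransferase, rose 1.18-fold. In the methionine cycle and glutathione list (21 tested, 4 higher and 5 lower, and 2 higher with library totals or without GCN2iB 4 or vehicle 1) CTH, which makes cysteine from cystathionine, fell 1.53-fold and CHAC2, the relative of CHAC1, rose 1.39-fold (log2 0.48, SE 0.10, adjusted p = 0.00204).

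The upstream sequence of these genes was searched for the composite site of C/EBP and ATF factors, TGATGNAA on either strand, in the 250 bases before the RefSeq start (GRCh38.p14). It occurred in 3.19% of 27305 promoters, in 1.41% of the 12076 promoters of tested genes and in 7 of the 49 (14.3%) matched promoters of genes of the amino acid lists (ATF4 program, transporters, cytosolic synthetases, serine and folate, other non-essential) that fell. Among members of those lists that did not fall it occurred in 2 of 38 (5.26%), and among all genes that fell in 25 of 1144 (2.19%). The 6 promoters with the site and the deepest falls are shown because they carry the motif beside the measured fall. They are written along the gene's strand, with the site in capitals.
FGF21 (chr19:48755425-48755522, plus strand): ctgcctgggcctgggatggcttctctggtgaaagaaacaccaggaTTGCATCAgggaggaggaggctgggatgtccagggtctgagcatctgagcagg
CHAC1 (chr15:40953221-40953314, plus strand): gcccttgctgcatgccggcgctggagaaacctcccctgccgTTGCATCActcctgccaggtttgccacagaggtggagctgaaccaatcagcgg
ASNS (chr7:97872424-97872521, minus strand): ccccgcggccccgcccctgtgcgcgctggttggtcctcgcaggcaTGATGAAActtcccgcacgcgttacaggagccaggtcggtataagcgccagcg
ATF3 (chr1:212565171-212565268, plus strand): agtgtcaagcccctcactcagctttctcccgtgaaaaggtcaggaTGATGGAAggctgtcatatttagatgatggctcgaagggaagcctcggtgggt
IARS1 (chr9:92293698-92293755, minus strand): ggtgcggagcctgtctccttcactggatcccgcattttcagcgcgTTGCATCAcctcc
AARS1 (chr16:70289641-70289738, minus strand): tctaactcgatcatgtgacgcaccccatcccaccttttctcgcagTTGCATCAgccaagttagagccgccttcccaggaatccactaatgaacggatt
In ASNS and ATF3 the site reads TGATG on the strand shown, and in the other 4 genes it reads as the reverse complement, TTGCATCA. The printed site begins at -209 from the RefSeq start in CHAC1, at -68 in ASNS and at -13 in IARS1. FGF21, a secreted metabolic hormone, read only 0.430, 0.332, 0.639 and 0.628 CPM under vehicle and 0.0837, 0.0951, 0.115 and 0 CPM under GCN2iB and was called lower (adjusted p = 0.000313), at too few counts for a useful fold. ATF3, a stress factor, read 71.7 to 75.95 CPM under vehicle and 50.05 to 54.1 CPM under GCN2iB and fell 1.42-fold. IARS1 and AARS1, the synthetases for isoleucine and alanine, fell 1.34-fold and 1.31-fold. A match is a description of letters only, and a promoter without one may hold the site elsewhere.

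The regulators of eIF2 moved in both directions, and few of those of mTORC1 were called. Of 18 kinases and factors of eIF2 4 fell and 3 rose (6 fell with library totals, and 2 without GCN2iB 2, GCN2iB 4, vehicle 1, vehicle 2 or vehicle 3). EIF5, which triggers GTP hydrolysis on eIF2, read 234 to 271 CPM under vehicle and 167 to 195 CPM under GCN2iB and fell 1.4-fold (log2 -0.49, SE 0.07, adjusted p = 3.18e-05). EIF2S1, the alpha subunit that GCN2 phosphorylates, rose 1.25-fold, and the exchange factor subunits EIF2B4 and EIF2B2 rose 1.25-fold and 1.21-fold. EIF2AK4, which encodes GCN2, read 137, 132, 129 and 120.05 CPM under vehicle and 123, 121, 128 and 95.2 CPM under GCN2iB, so the groups overlapped (log2 -0.15, adjusted p = 0.198). Of 35 genes that report amino acids to mTORC1 3 fell (8.57%, against 8.71% of all genes tested) and 2 rose (5.71%, against 11.4%). With library totals 8 fell and 1 rose, with the GC and length trends removed 6 fell and 5 rose, and at a mean of at least 50 counts 7 fell. The number that rose was 1 without vehicle 1 or 3 or GCN2iB 2 or 4, and 4 without GCN2iB 1. The 2 with the deepest falls in that list are stress-induced inhibitors of mTORC1: SESN2, at 40.4, 44.9, 47.2 and 46.6 CPM under vehicle and 20.4, 20.95, 19.1 and 21.3 CPM under GCN2iB (ENSG00000130766, chromosome 1, 28259527 to 28282491), fell 2.19-fold (log2 -1.13, SE 0.07, adjusted p = 1.32e-10), and DDIT4, at 319, 314, 322 and 354 CPM under vehicle and 178, 166, 148 and 224 CPM under GCN2iB, fell 1.82-fold (log2 -0.87, SE 0.10, adjusted p = 2.11e-06). Both genes were without overlap between treatments. LAMTOR4, a subunit of the lysosomal anchor of mTORC1, rose 1.5-fold.

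Genes of the endoplasmic reticulum (ER), which fold secreted proteins and remove misfolded ones, fell with the ATF4 program. Of 39 tested 25 fell and 0 rose, with a median of -0.24. HERPUD1, a factor of ER-associated degradation, read 291, 290.5, 306 and 287 CPM under vehicle and 176, 175, 185 and 192 CPM under GCN2iB and fell 1.61-fold (log2 -0.69, SE 0.06, adjusted p = 7.35e-08). HSP90B1, the chaperone GRP94, read 1628 to 1841 CPM under vehicle and 1177 to 1275 CPM under GCN2iB and fell 1.44-fold. HSPA5, the chaperone BiP, read 3012 to 3106 CPM under vehicle and 2206 to 2401 CPM under GCN2iB and fell 1.34-fold, and ERN1, the ER stress sensor IRE1, fell 1.48-fold. None of these 4 overlapped between treatments. Per library the list median was -0.28, -0.29, -0.26 and -0.25 in GCN2iB 1 to 4, and 27 genes fell without replicate 4. The ER stress element is CCAAT and CCACG with 9 bases of any kind between them on either strand, and it contains a CCAAT box. It was found in 5 of the 23 matched promoters of the ER genes that fell (21.7%) and in 2 of 13 of those that did not (15.4%). Its share was 0.0806% of all promoters, 0.116% of those of tested genes and 0.612% of those of all genes that fell. The HSP90B1 promoter, chosen after its values were seen as the deepest fall with the element, is shown with the element in capitals, which lies at -89 as the reverse complement.
HSP90B1 (chr12:103930281-103930379, plus strand): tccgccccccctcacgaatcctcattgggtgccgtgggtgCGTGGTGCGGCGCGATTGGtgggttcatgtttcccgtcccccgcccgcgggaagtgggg
Cytosolic and mitochondrial heat shock chaperones went the opposite way, with 17 of 30 higher and 1 lower. HSF2, a heat shock transcription factor, rose 1.37-fold (log2 0.45, SE 0.07, adjusted p = 0.000123) from 18.1 ± 0.531 to 24.9 ± 2.01 CPM. HSPA1B, an inducible HSP70, rose 1.34-fold, AHSA1, an activator of HSP90, 1.23-fold and DNAJA1, a cochaperone, 1.21-fold. HSPA1B has a near-identical neighbour, so its reads are hard to assign. HSPA9, mitochondrial HSP70, was the faller (log2 -0.21, adjusted p = 0.00653).

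Genes of DNA replication and mitosis rose together. Of 51 genes of replication origins and forks 39 rose and 0 fell, and of 66 genes of mitosis, kinetochore and spindle 54 rose and 0 fell, with medians of 0.34 and 0.43. UHRF1, which keeps DNA methylation through replication (ENSG00000276043, chromosome 19, 4903080 to 4962154), read 63.7, 72.8, 70.9 and 70.9 CPM under vehicle and 116, 126, 118 and 117 CPM under GCN2iB. The 2 groups were far apart and UHRF1 rose 1.71-fold (log2 0.78, SE 0.06, adjusted p = 1.72e-08). MCM7, a helicase subunit, rose 1.6-fold from 394 ± 32.5 to 630.01 ± 23.7 CPM, RFC4, of the clamp loader, 1.56-fold and CDC45, of the active helicase, 1.57-fold. In mitosis CDC20, the activator of the anaphase-promoting complex (ENSG00000117399, chromosome 1, 43358955 to 43363203), read 142, 167, 166 and 170.1 CPM under vehicle and 276, 301, 274 and 306 CPM under GCN2iB and rose 1.8-fold (log2 0.84, SE 0.07, adjusted p = 6.67e-09). TPX2, a spindle assembly factor, read 184 to 200.2 CPM under vehicle and 298 to 364 CPM under GCN2iB and rose 1.76-fold, NDC80, of the kinetochore, 1.77-fold and CCNA2, cyclin A2, 1.66-fold. In GCN2iB 1 to 4 the list medians were 0.30, 0.36, 0.37 and 0.28 for replication and 0.43, 0.47, 0.47 and 0.40 for mitosis. Replicate 4 had the lowest of the treated medians in both lists, and 40 replication and 56 mitosis genes rose without it.

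Repair and nucleotide supply followed the same direction. Of 29 genes of homologous recombination and the Fanconi anemia pathway 15 rose and 0 fell (10 higher and 1 lower with library totals). EXO1, an end resection nuclease, read 32.8, 31.7, 31.8 and 28.1 CPM under vehicle and 43.9, 46.3, 48.3 and 39.7 CPM under GCN2iB and rose 1.43-fold (log2 0.52, SE 0.08, adjusted p = 5.04e-05), and FANCG, of the Fanconi core complex, rose 1.4-fold. Of 23 genes of pyrimidine synthesis and deoxynucleotide supply 12 rose and 0 fell. TK1, thymidine kinase, rose 1.74-fold (log2 0.80, SE 0.08, adjusted p = 3.17e-07) from 218 ± 24.6 to 378 ± 32.3 CPM, DTYMK, the next kinase in that route, 1.61-fold, RRM2, of ribonucleotide reductase, 1.53-fold and DUT, which removes dUTP, 1.48-fold. Among enzymes of the de novo purine route 5 of 15 rose and 0 fell, all by less than 1.5-fold: PFAS (1.33-fold), PRPS1 (1.15-fold), PAICS (1.18-fold), GART (1.16-fold) and PPAT (1.18-fold, named after its value was seen). With library totals PFAS alone of these passed (adjusted p = 0.000495 against 0.051 to 0.173), and PRPS1 also missed without the count filter (0.0557). The call of PPAT ended without vehicle 2, 3 or 4, GCN2iB 1, 2 or 3, or replicate 2 or 3 of either WT group (0.0521 to 0.147), at a mean of 50 counts (0.0633) and with only the groups compared (0.0867). Purine salvage and transport had 7 of 22 higher and 2 lower, and 2 and 2 without GCN2iB 4. It had 2 higher and 5 lower with library totals, 4 higher without vehicle 1 or vehicle 2, and 4 lower without GCN2iB 3. The pentose phosphate pathway had 2 of 12 higher and 1 lower (1 and 0 without GCN2iB 4, and 1 higher with library totals or without any other of the 8 libraries but vehicle 4 or GCN2iB 1), of which TKT, transketolase, rose 1.19-fold.

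Among promoters of the risers, TTTNNCGC, an E2F site on either strand, occurred in 9 of 34 replication genes (26.5%) and in 8.70% of the promoters of tested genes, and TTTGAA, the CHR element, in 21 of 46 mitosis genes (45.7%) against 8.46%. In promoters of all genes that rose the shares were 12.6% for TTTNNCGC and 10.3% for TTTGAA. Members of the 2 lists that did not rise were not counted, so the shares cannot be tied to the rise. TTTGAA occurred in 0 of the 34 replication promoters and TTTNNCGC in 6 of the 46 mitosis promoters (13.0%). These 2 motifs can share their first 3 bases but not a whole match. The promoters of the 3 replication and mitosis genes with the largest rises among those with either motif are shown because they join the measured rise to the letters, with the match in capitals.
CDC20 (chr1:43358876-43358961, plus strand): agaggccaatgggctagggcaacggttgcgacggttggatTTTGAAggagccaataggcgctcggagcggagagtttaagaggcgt
KIF18A (chr11:28108157-28108206, minus strand): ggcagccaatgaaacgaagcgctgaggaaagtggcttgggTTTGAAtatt
UHRF1 (chr19:4909447-4909500, plus strand): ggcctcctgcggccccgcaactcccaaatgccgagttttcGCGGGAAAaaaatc
CDC20 and KIF18A carry the CHR element and UHRF1 the E2F site, as its reverse complement. KIF18A, a kinesin that aligns chromosomes, read 11.6 to 14.1 CPM under vehicle and 17.3 to 24.02 CPM under GCN2iB and rose 1.67-fold (log2 0.74, SE 0.10, adjusted p = 2.24e-05).

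Both inhibitors and drivers of the cell cycle rose. Inhibitors of cyclin-dependent kinases had 6 of 8 members higher and 0 lower. CDKN2D, the inhibitor p19 (ENSG00000129355, chromosome 19, 10566462 to 10569059), read 18.7, 22.5, 20.9 and 24.2 CPM under vehicle and 37.2, 43.5, 41.5 and 51.7 CPM under GCN2iB and rose 2.02-fold (log2 1.01, SE 0.09, adjusted p = 5.07e-08), with every treated library above every vehicle library. CDKN2C, the inhibitor p18, rose 1.51-fold from 68.5 ± 5.21 to 103 ± 12.5 CPM, CDKN2B, p15, 1.36-fold and CDKN3, a phosphatase that acts on CDK2, 1.24-fold. CDKN1A, the inhibitor that p53 induces, read 35.4, 36.1, 35.4 and 43.1 CPM under vehicle and 39.9, 38.5, 41.5 and 51.7 CPM under GCN2iB, and the groups overlapped (log2 0.20, adjusted p = 0.183). Among E2F, RB and G1 cyclin genes 8 of 22 rose and 1 fell, and 14 rose with the GC and length trends removed. E2F7, a repressor of the family, read 19.7, 18.9, 18.1 and 15.7 CPM under vehicle and 29.4, 29.9, 28.3 and 20.7 CPM under GCN2iB and rose 1.49-fold (log2 0.58, SE 0.11, adjusted p = 0.000522), and here replicate 4 was the treated library nearest to vehicle. CDK4, a kinase of G1, rose 1.47-fold, LIN9, of the DREAM and MuvB complexes, 1.37-fold and E2F2 1.33-fold. RBL2, the pocket protein p130, fell (log2 -0.25, adjusted p = 0.0445, and 0.0526 to 0.158 without vehicle 1, 2 or 3, GCN2iB 2 or 4, or any WT library but vehicle 1 or 4, and 0.102 with only the groups compared).

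Genes of protein synthesis and breakdown machinery rose in large numbers, and most of these are short transcripts. Of 86 cytosolic ribosomal protein genes 63 rose and 0 fell, of 77 mitochondrial ribosomal protein genes 51 rose and 1 fell (MRPS25, log2 -0.25, adjusted p = 0.0341, and 0.0549 to 0.126 without vehicle 1, 2 or 3 or GCN2iB 1, 3 or 4), and of 78 nuclear genes of the respiratory chain 27 rose and 0 fell. RPL24, of the large cytosolic subunit, read 647, 671, 642 and 734 CPM under vehicle and 861, 878, 882 and 1118 CPM under GCN2iB and rose 1.39-fold (log2 0.47, SE 0.08, adjusted p = 0.000156). NDUFB10, of complex I, read 189, 209.8, 213 and 215 CPM under vehicle and 256, 273, 248 and 349.96 CPM under GCN2iB and rose 1.36-fold (log2 0.45, SE 0.09, adjusted p = 0.00158). In both genes the groups did not overlap and replicate 4 was the highest library. MRPS30 and MRPL47, of the mitochondrial ribosome, rose 1.43-fold and 1.46-fold, and MRPS30 was nearly level over the treated libraries at 83.7, 89.6, 80.5 and 90.5 CPM. CYCS, cytochrome c, rose 1.28-fold and SDHB, of complex II, 1.28-fold. Ribosomal protein genes have many processed copies, so their counts are uncertain.

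GCN2iB 4 was the highest treated library in 79 of the 86 cytosolic ribosomal genes (91.9%), 71 of the 78 respiratory genes (91.0%) and 63 of the 77 mitochondrial ribosomal genes (81.8%), against 37.1% of all genes tested. The list medians in GCN2iB 1 to 4 were 0.19, 0.24, 0.19 and 0.60 for cytosolic ribosomal proteins, 0.22, 0.25, 0.23 and 0.49 for mitochondrial ones and 0.11, 0.14, 0.12 and 0.50 for the respiratory chain. By the longest annotated transcript of each gene, the median lengths in these lists were 1864.5, 1727 and 1583 bases, against 3028.5 over all genes tested. Without GCN2iB 4 the numbers that rose were 36, 40 and 16, and in GCN2iB 1 to 3 all 3 list medians were still above every vehicle library. Leaving out vehicle 1 left 40 cytosolic ribosomal genes higher. With the trends on GC content and length removed from every library (an added setting, chosen with these data in view), 57, 50 and 25 rose. The mitochondrially encoded subunits did not share the rise: of 13 tested 0 rose and 1 fell, MT-CO1, which read 6560.0 to 7234 CPM under vehicle and 5034 to 5557 CPM under GCN2iB and fell 1.27-fold (log2 -0.35, SE 0.07, adjusted p = 0.00172). The number that fell was 4 with library totals and 7 with the GC and length trends removed.

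**Figure D3:**
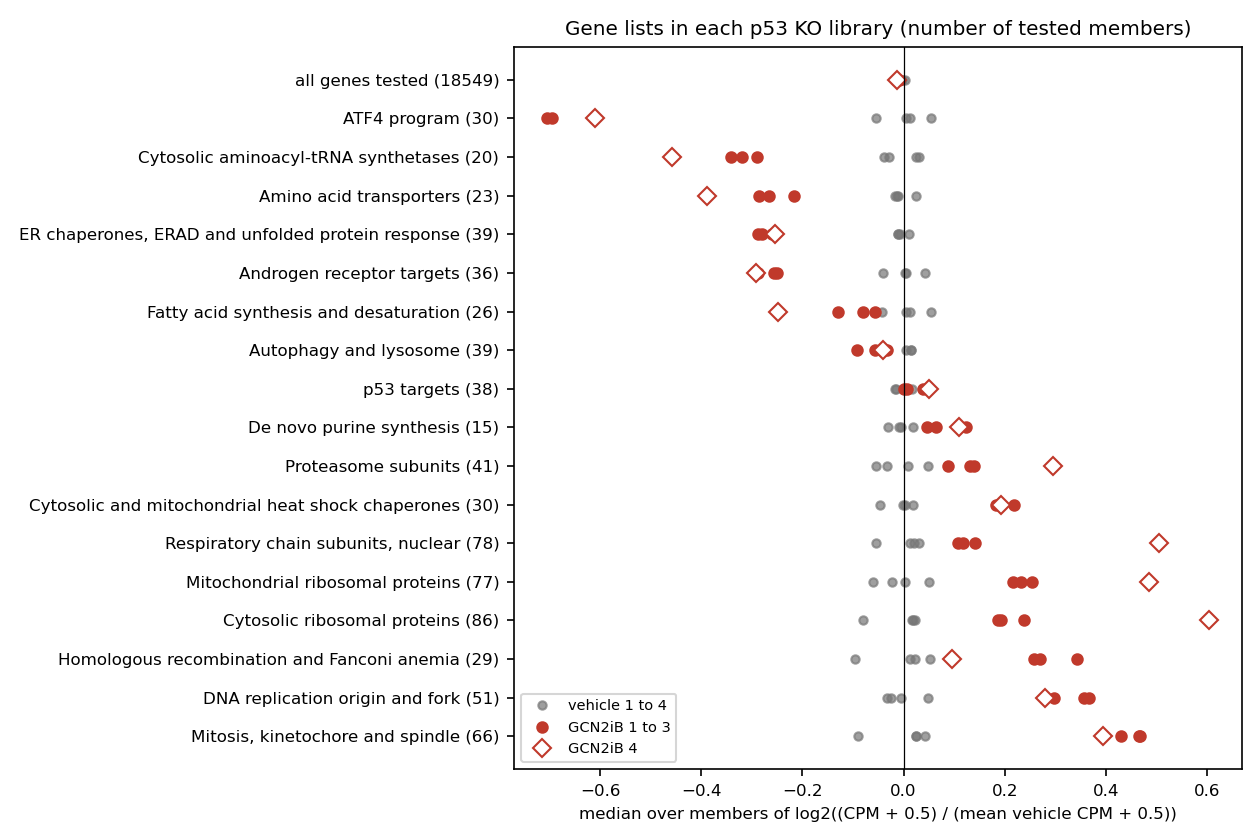
Median over the tested members of each gene list of the log2 level relative to the vehicle mean (x axis, CPM with 0.5 added), for each of the 8 p53 KO libraries: grey circles are vehicle, red circles GCN2iB 1 to 3 and open diamonds GCN2iB 4. The ATF4 program lies near -0.61 to -0.71 and the mitosis list near 0.40 to 0.47 in all 4 GCN2iB libraries, whereas GCN2iB 4 stands apart in the ribosomal and respiratory lists, at 0.49 to 0.60.

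Nucleolar, proteasome and small nucleolar RNA host genes rose as well. Of 39 genes of ribosome biogenesis and RNA polymerase I 19 rose and 1 fell (18 and 1 without GCN2iB 4), with list medians of 0.18, 0.23, 0.18 and 0.15 in GCN2iB 1 to 4. NOP56, of the box C/D complex that guides methylation of ribosomal RNA, read 262, 284, 279.6 and 287 CPM under vehicle and 385, 412, 395 and 409 CPM under GCN2iB and rose 1.44-fold (log2 0.53, SE 0.05, adjusted p = 2.35e-07). NCL, nucleolin, rose 1.34-fold and DKC1, of the box H/ACA complex, 1.32-fold, both without overlap. RRN3, which brings RNA polymerase I to its promoters, was the faller (log2 -0.27, adjusted p = 0.00598). Of 41 proteasome genes 17 rose and 1 fell (13 and 1 without GCN2iB 4). The proteasome medians were 0.09, 0.13, 0.14 and 0.30, and GCN2iB 4 was the highest treated library in 68.3% of the 41 genes. PSMC3, an ATPase of the regulatory particle, rose 1.39-fold (log2 0.48, SE 0.07, adjusted p = 3.81e-05) from 253 ± 17.9 to 352 ± 28.4 CPM, and PSMB2, PSMC1 and PSMD6 rose 1.22-fold, 1.25-fold and 1.21-fold. PSME4, an alternative activator, fell 1.27-fold. Host genes of small nucleolar RNAs had 9 of 27 higher and 1 lower, and GCN2iB 4 was the highest treated library in 70.4% of the 27. SNHG9, one of the largest rises by the naming rule, read 12.1, 13.9, 14.3 and 10.6 CPM under vehicle and 18.2, 18.9, 16.99 and 35.6 CPM under GCN2iB, where replicate 4 was far above the rest. Its adjusted p was 0.0272 with all libraries, 0.0626 without GCN2iB 4, 0.0727 without vehicle 1, 0.0723 without vehicle 4 and 0.0813 without the count filter.

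Large changes at the level of single genes were also found outside these lists or in small ones. CBLN2, a secreted synaptic organizer (ENSG00000141668, chromosome 18, 72536680 to 72638521), read 12.1, 12.3, 13.01 and 12.6 CPM under vehicle and 28.7, 28.3, 27.5 and 28.3 CPM under GCN2iB. Both groups were tight and CBLN2 rose 2.25-fold (log2 1.17, SE 0.08, adjusted p = 2.26e-10). KITLG, the ligand of the receptor KIT (ENSG00000049130, chromosome 12, 88492793 to 88580851), read 4.56, 3.65, 2.94 and 3.09 CPM under vehicle and 7.93, 8.34, 9.16 and 6.38 CPM under GCN2iB and rose 2.21-fold (log2 1.14, SE 0.14, adjusted p = 4.86e-06). ZMAT5, of the minor spliceosome, rose 1.99-fold, SFR1, a factor of recombination repair, 1.81-fold, MIS18A, which licenses centromeres, 1.79-fold and DTL, a ubiquitin ligase adaptor of S phase, 1.77-fold. STYXL2, a pseudophosphatase, read 9.56, 9.5, 10.1 and 10.9 CPM under vehicle and 2.74, 2.54, 3.34 and 3.55 CPM under GCN2iB and fell 3.31-fold (log2 -1.73, SE 0.13, adjusted p = 3.62e-09). BEST1, a chloride channel, fell 2.16-fold from 11.96 ± 0.628 to 5.55 ± 0.184 CPM. The long noncoding RNA LINC01133 read 5.37 to 7.5 CPM under vehicle and 2.62 to 3.12 CPM under GCN2iB and fell 2.32-fold. None of these genes overlapped between treatments.

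Receptors of the IGF axis and androgen receptor targets fell. In the list of the IGF axis and KIT ligand (14 tested, 1 higher and 3 lower, and 5 lower with library totals or without vehicle 4) the receptor IGF1R read 76.5, 79.5, 70.4 and 70.8 CPM under vehicle and 55.4, 55.8, 56.3 and 42.9 CPM under GCN2iB and fell 1.41-fold (log2 -0.50, SE 0.09, adjusted p = 0.000252). IGF2R, which clears IGF2, fell 1.33-fold from 485 ± 25.8 to 366 ± 41.5 CPM, and GRB10, an adaptor that dampens IGF1R signalling, 1.34-fold. In all 3 genes GCN2iB 4 was the lowest library, and all 3 passed without it (adjusted p = 0.000414, 0.000371 and 0.000385). Androgen receptor targets had 20 of 36 lower and 0 higher, and 21 lower without GCN2iB 4. PMEPA1, an inhibitor of TGF-beta signalling, read 167, 168, 166 and 188 CPM under vehicle and 125, 120, 128 and 129 CPM under GCN2iB and fell 1.37-fold (log2 -0.46, SE 0.06, adjusted p = 4.42e-06). CAMKK2, a calcium-activated kinase, read 94.7, 95.9, 95.8 and 95.3 CPM under vehicle and 74.8, 71.2, 75.2 and 72.996 CPM under GCN2iB and fell 1.3-fold. MAF, a transcription factor, fell 1.35-fold and UAP1, of hexosamine synthesis, 1.3-fold. Luminal markers had 7 of 20 lower and 1 higher (11 lower with the GC and length trends removed), with SLC45A3, a prostate transporter, 1.26-fold and KLK2, a secreted protease, 1.24-fold lower and GATA2, a cofactor of the androgen receptor, 1.3-fold higher.

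Lipid, redox and polyamine genes moved in both directions. Of 30 cholesterol genes 7 fell and 4 rose (11 and 1 with library totals, and 2 rose without vehicle 1 or 3 or GCN2iB 1 or 2). PMVK, an early kinase of the pathway, read 76.9 to 89.9 CPM under vehicle and 114 to 154 CPM under GCN2iB and rose 1.49-fold (log2 0.57, SE 0.09, adjusted p = 9.62e-05). Of 26 genes of fatty acid synthesis 7 fell and 1 rose (11 and 1 with library totals). ELOVL5, an elongase, fell 1.29-fold, ACSL3, an acyl-CoA synthetase, 1.3-fold and LPIN1, a phosphatidate phosphatase, 1.29-fold, and DGAT2, which makes triglyceride, rose 1.37-fold. NRF2 targets had 5 of 25 lower and 2 higher (3 and 3 without GCN2iB 4), and SLC7A11 and GCLC, of cystine uptake and glutathione synthesis, were among the 5. Of 21 polyamine genes 4 rose and 2 fell (4 fell with library totals or with the GC and length trends removed). The first counts are 19.0% higher and 9.52% lower, against 11.4% and 8.71% of all genes tested. SMOX, spermine oxidase, read 9.66, 10.98, 10.02 and 12.6 CPM under vehicle and 6.34, 7.32, 6.97 and 8.76 CPM under GCN2iB and fell 1.46-fold (log2 -0.55, SE 0.11, adjusted p = 0.000981). EIF5A, the factor that carries hypusine, rose 1.35-fold, DOHH, which completes hypusine, 1.3-fold and ENOPH1, of methionine salvage, 1.27-fold. Glycolysis and hypoxia genes had 10 of 31 higher and 4 lower. VEGFA, the vascular growth factor, read 104 to 114 CPM under vehicle and 70.7 to 83.8 CPM under GCN2iB and fell 1.39-fold (log2 -0.47, SE 0.06, adjusted p = 9.95e-06), and PFKM, a phosphofructokinase, rose 1.21-fold.

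The other lists held few calls or calls in both directions. Over all genes tested 11.4% rose and 8.71% fell. Interferon-stimulated genes had 12.5% higher and 5% lower, replication histones 13.0% and 2.17%, and autophagy and lysosome genes 2.56% and 12.8%. Autophagy and lysosome genes had 5 of 39 lower and 1 higher (11 and 0 with library totals), with NBR1, an autophagy receptor, 1.23-fold and TPP1, a lysosomal protease, 1.24-fold lower. Presentation by MHC class I had 4 of 18 lower and 0 higher (2 lower without vehicle 2 or 3, and 7 with the GC and length trends removed), and TAP2, of the peptide transporter, fell 1.24-fold. Interferon-stimulated genes had 5 of 40 higher and 2 lower, with 1 higher under library totals, 3 without the count filter, 2 without vehicle 4 and 3 without GCN2iB 2, 3 or 4. MX1, an antiviral GTPase, read 12.8, 12.2, 12.7 and 11.9 CPM under vehicle and 9.6, 10.05, 10.3 and 9.17 CPM under GCN2iB and fell 1.27-fold (log2 -0.35, SE 0.08, adjusted p = 0.00357), whereas OASL, of the oligoadenylate synthetase family, read 90.7 to 105 CPM under vehicle and 129.6 to 148 CPM under GCN2iB and rose 1.39-fold. The MYC network had 1 of 12 higher, MXD3, a repressor partner of MAX (1.49-fold), and 2 lower, MLXIPL (1.57-fold) and MXI1 (1.18-fold, with an adjusted p of 0.0273, and 0.0709 to 0.112 without vehicle 1 or 3 or GCN2iB 2 or 4). With library totals 5 of the 12 were lower. Of 46 histone genes tied to replication 6 rose and 1 fell, with counts made uncertain by nearly identical copies. H4C3, a histone H4 gene, was low at 1.19, 1.51, 1.51 and 1.15 CPM under vehicle and 3.21, 2.47, 3.74 and 6.73 CPM under GCN2iB and rose 3.04-fold (log2 1.60, SE 0.31, adjusted p = 0.00141), with replicate 4 the highest. Basal, neuroendocrine and mesenchymal markers had 1 of 9 lower (ITGA6), 1 of 4 higher (ENO2) and, of 13, 1 higher (COL3A1) and 2 lower (COL1A1 and SNAI2). None of the 4 tested immune markers was called. In any of the p53 KO libraries the defining markers summed to at most 7.87 CPM for basal, 0.383 CPM for immune and blood and 22.7 CPM for stromal cells.

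Targets of p53 were read in cells labelled as lacking it. Of 38 tested 7 rose and 3 fell (5 and 7 with library totals, and 8 lower with the GC and length trends removed), with a median of 0.03. The first counts are 18.4% higher and 7.89% lower, against 11.4% and 8.71% of all genes tested. MDM2, the ubiquitin ligase of p53, read 59.8, 50.2, 50.7 and 48.4 CPM under vehicle and 56.02, 53.4, 57.02 and 42.7 CPM under GCN2iB and did not pass (adjusted p = 0.985). PPM1D, a phosphatase that opposes the DNA damage response, read 20.1, 23.7, 23.03 and 21.7 CPM under vehicle and 27.2, 32.1, 29.5 and 28.9 CPM under GCN2iB and rose 1.33-fold (log2 0.41, SE 0.07, adjusted p = 0.000383). The 3 that fell were SESN2, PMAIP1, the apoptosis factor NOXA (28.3 to 32.2 CPM under vehicle and 21.4 to 24.5 CPM under GCN2iB, 1.33-fold), and TNFRSF10B, a death receptor for TRAIL (1.23-fold). SESN2 also belongs to the ATF4 list and to the mTORC1 list.

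The response was then set beside that of WT cells, measured in 8 other libraries, where 4677 genes (25.2%) were called. Of the 3734 genes called in p53 KO cells 2396 (64.2%, and 51.2% of the WT calls) were called in the same direction in WT cells, 1323 higher and 1073 lower, and 5 in the opposite direction. The other 1333 did not pass in WT cells, but 1185 of them had the same sign there, and in 0 of them did the test of the difference pass. Across all tested genes the log2 changes of the genotypes correlated at a Pearson r of 0.51, where genes are not independent replicates. CHAC1 fell 9.52-fold, SLC7A5 4.0-fold and GARS1 3.02-fold in WT cells, each more than in p53 KO cells, but their differences did not pass (adjusted p = 0.453, 0.0526 and 0.0674). Of the 20 cytosolic synthetases 19 had a higher log2 change in p53 KO than in WT, that is a smaller fall or larger rise. The difference was called in 0 of them. This direction was not particular to the synthetases. It held for 47 of 51 replication genes, 21 of 23 pyrimidine and deoxynucleotide genes and 61 of 77 mitochondrial ribosomal genes. Fewer had it among ER genes (17 of 39) and inhibitors of cyclin-dependent kinases (2 of 8). The median difference over all genes was 0.02. CDC20 rose 1.72-fold, UHRF1 1.61-fold and CDKN2D 2.27-fold in WT cells, and none of the 3 differences passed (adjusted p = 0.887, 0.815 and 0.723).

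**Figure D4:**
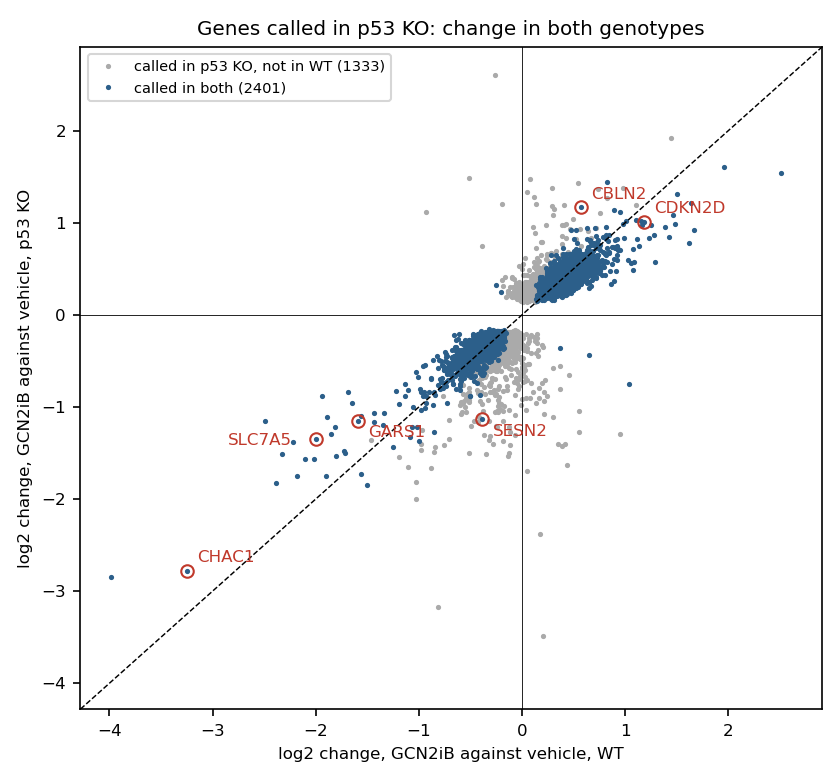
Log2 change under GCN2iB in WT cells (x axis) and in p53 KO cells (y axis) for the 3734 genes called in p53 KO, in blue where also called in WT; the dashed line marks equal change. Of these genes 2396 were called in the same direction in both, and SESN2 lies below the line at -0.39 in WT and -1.13 in p53 KO.

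SESN2 was the 1 gene (0.00539% of those tested) for which the difference between genotypes passed in the edgeR test, with 0 in the higher direction; 1754 genes (9.46%) had an unadjusted p under 0.05, and the DESeq2 test called 20 higher and 19 lower. In WT cells SESN2 read 45.8, 52.2, 52.1 and 51.4 CPM under vehicle and 37.7, 41.0, 39.2 and 36.5 CPM under GCN2iB. In p53 KO cells it read 40.4, 44.9, 47.2 and 46.6 CPM under vehicle and 20.4, 20.95, 19.1 and 21.3 CPM under GCN2iB. The treated p53 KO libraries were lower than all others, whereas the vehicle libraries of the genotypes overlapped. The fall was 1.31-fold in WT and 2.19-fold in p53 KO cells, a difference of -0.74 (log2, SE 0.10, adjusted p = 0.00142), and between -0.81 and -0.71 in all other settings and with any 1 library left out, with an adjusted p of at most 0.00772. CBLN2, at 1.49-fold in WT and 2.25-fold in p53 KO cells, did not pass (log2 difference 0.60, adjusted p = 0.0526).

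**Figure D5:**
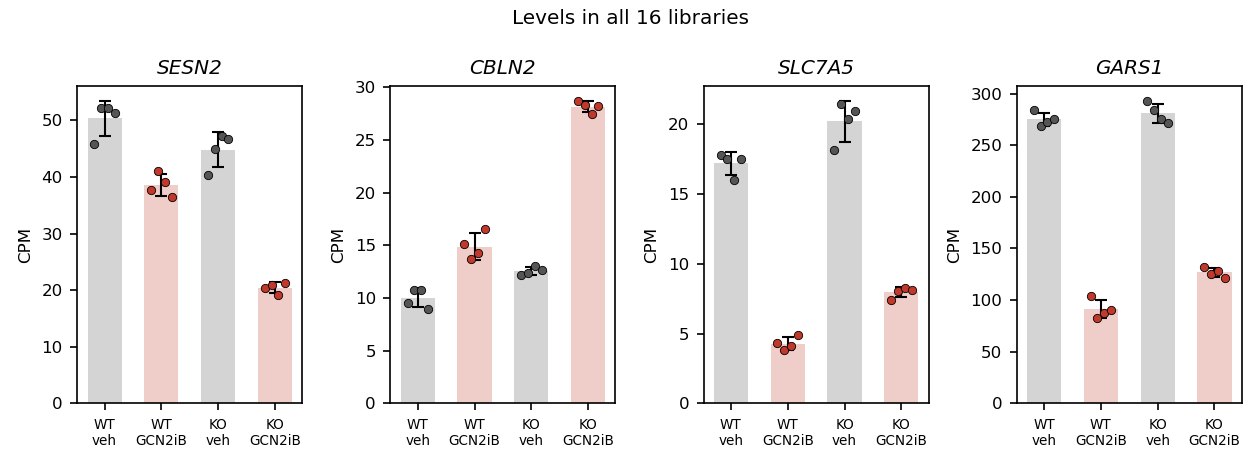
Level in CPM (y axes, from 0) of SESN2, CBLN2, SLC7A5 and GARS1 in all 16 libraries by group: points are libraries, bars means and whiskers SD (n = 4). SESN2 under GCN2iB lies at 36.5 to 41.0 CPM in WT and at 19.1 to 21.3 CPM in p53 KO cells, and only for SESN2 of these 4 did the difference of the responses pass.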

How the data were processed

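RNA was sequenced from 16 LNCaP samples, 4 per combination of genotype (WT, p53 KO) and treatment (vehicle, GCN2iB). The deposited values are raw counts of reads per gene made by the authors, in a table of 62754 identifiers. Per the submitters' processing notes the build was GRCh38 and the tools were HISAT2, featureCounts, Trim Galore and DESeq2, with no roles stated. The sources used here give no versions, annotation release or strand setting. Without a known strand setting, reads of overlapping antisense genes cannot be told apart. 0 columns were left without a sample.

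The filterByExpr filter of edgeR 4.0.16 (R 4.3.3) left 18549 genes with at least 99.906% of every library's counts. Totals were scaled by TMM, and a quasi-likelihood model with 1 term per group was fitted with robust dispersion over all 16 libraries, which share 1 estimate of the spread. The treatment effect was tested in p53 KO cells, in WT cells and as the difference of both effects. Tests were two-sided, adjusted by Benjamini-Hochberg over all genes, with a threshold of 0.05. The SE is the size of the log2 change divided by the square root of F. CPM are those of edgeR on scaled totals. Transcript length and GC content are those of the longest GENCODE 29 transcript of each gene, which need not be the one measured. Positions are from GENCODE 29 (58261 of 62754 identifiers) and promoters from RefSeq (GRCh38.p14, the first start listed per gene, matched for 12076 tested symbols). The starts of the 2 sources can differ, so a printed promoter can lie inside the gene as positioned. Those of CHAC1, ASNS, UHRF1 and HSP90B1 do. On simulated counts for the p53 KO comparison over 18254 genes the fit recovered 39.6% of 1.3-fold, 56.0% of 1.5-fold, 72.0% of 2-fold and 94.0% of 4-fold changes, with 5.8% false calls. Only 48 to 50 genes per fold were changed there, and none in WT, against 3734 called here, so these shares need not hold for the data.

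The 8 libraries, the 45 gene lists (1363 genes, 1266 tested), the tests and the rule for named genes were chosen with earlier results of these data known. The rule took a small set of stress and p53 genes, the 12 largest rises and falls among called genes of at least 5 CPM without overlap, up to 4 called members of each list by adjusted p, and genes called in the difference. Others are marked as chosen after their values were seen, apart from members of small counts and those with a printed promoter. Alternatives were DESeq2 1.42.0 size factors and test, library totals, no count filter, a mean of 50 counts, limma 3.58.1 voom, only the groups compared, replicate number as a block, each library left out in turn and, added after seeing the data, removal of trends on GC content and length (5 spline degrees of freedom, 17678 genes). Values of the targeted gene and of a few other genes are not reported here.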

Additional observations from a re-analysis of the deposited data

Results flagged for a closer look

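The 4 libraries of each p53 KO group were checked for 1 value far from the other 3 (its gap to the nearest over the whole range, above Dixon's 95% critical value) in 304 groups of values of the genes described. Chance alone marks about 1 group in 20, and 27 were marked. GCN2iB 4 was the library in 14 of these, and the causes were not tested.

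In GCN2iB 4 the highest value of the treated group was found for CHAC1 (4.28 CPM against 2.99 to 3.17), SLC1A5 (70.26 against 58.6 to 60.4), DGAT2 (47.93 against 40.5 to 40.7), DUT (145.0 against 120 to 123), TK1 (426.1 against 359 to 367) and LAMTOR4 (128.1 against 89.4 to 95.2). The same library was highest for PMVK (153.5 CPM against 114 to 118), RPL24 (1118 against 861 to 882), SDHB (100.3 against 83.3 to 83.5) and SNHG9 (35.61 against 16.99 to 18.9). It was lowest for GART (145.2 CPM against 160 to 161), IARS1 (276.1 against 340.0 to 351), IGF1R (42.89 against 55.4 to 56.3) and RBL2 (56.22 against 71.8 to 74.9). For CHAC1, SLC1A5, IARS1 and IGF1R the separated library still lay on the treated side of every vehicle library. GCN2iB 1 was lowest for SHMT1, at 137.2 CPM against 142 to 143.

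Among vehicle libraries, replicate 1 was lowest for CDC20 (141.6 CPM against 166 to 170), MXD3 (16.56 against 22.2 to 22.5) and OASL (90.7 against 103 to 105), and highest for EIF2S1 (270.0 against 231 to 238), HSPA9 (579.5 against 550 to 554) and MAF (108.2 against 94.0 to 96.4). Vehicle 3 was highest for DNAJA1 (352.4 CPM against 339 in the other 3) and HSPA1B (81.77 against 71.4 to 72.8). Vehicle 4 was highest for CDKN1A (43.06 CPM against 35.4 to 36.1), EIF5A (560.8 against 511 to 513) and PMEPA1 (187.8 against 166 to 168), and lowest for DTL (41.64 against 47.4 to 48.4).

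The response of SESN2 differed between the genotypes in the test of the difference itself, by -0.7424 (log2, p53 KO minus WT).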

How the results depend on the processing

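In p53 KO cells, 2119 genes rose and 1615 fell. With library totals as the only scaling the counts were 1401 and 2672, with GC and length trends removed 2427 fell, and the other scalings, filters and tools were within 1.5 times of the first values. Leaving out 1 library gave 1605 to 2239 higher and 1193 to 1737 lower genes. In WT cells these ranges were 1780 to 2486 and 1668 to 2878. For the difference between genotypes (0 higher, 1 lower) the DESeq2 test called 20 and 19 and no count filter 13 and 34. GC and length removal called 6 and 7. Lower calls alone numbered 2 with DESeq2 size factors, 4 with library totals and 6 at a mean of 50 counts. Leaving out 1 library gave 0 to 19 higher and 1 to 15 lower. Replicate numbers were not taken as pairs, since only 5 of 24 same-number correlations were over 0.1: residuals of same-numbered p53 KO vehicle and GCN2iB libraries correlated at 0.08, -0.003, -0.003 and 0.26, although 10 of 16 libraries correlated best with their own number, a hint from the data and not from the design. With the number as a block, 2864 genes rose and 2437 fell in p53 KO cells, and the difference had 35 higher and 26 lower. EIF2AK4 then passed (adjusted p = 0.048). Of the genes named by the rule or in the text, 20 changed side of the threshold in at least 1 setting and 0 changed sign, with 94 calls ended and 1 gained against 4628 that held their side. Of the counts of called list members, 2036 stayed within 1.5 times and 212 moved. In simulation at the depth and group size of these libraries, but with far fewer changed genes, 39.6% of 1.3-fold changes were found. That share need not hold here, and a small change without a call may be missed.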
